A study of Mus musculus with 18 samples.

Results

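The 10 genes described here encode 8 serine/arginine-rich (SR) splicing factors, Srsf1, Srsf2, Srsf3, Srsf5, Srsf6, Srsf7, Tra2a and Tra2b, and both classical cold-inducible RNA-binding proteins, Cirbp and Rbm3. They were chosen by gene symbol, with earlier results of these same libraries known, so their differences between groups are given as a description and support nothing beyond the values themselves. All 10 of 10 symbols were found among 19057 genes in the table of liver RNA-seq values, and all 10 passed the filter for the tests, a mean of 1 RPKM or more over the libraries, as did 10204 genes in total. RPKM gives the reads per kilobase of gene, normalised to the sequenced reads of the library. The libraries came from livers of ICR mice of 10 weeks of age, with 3 libraries in each of 6 groups. Con mice were controls, A10 mice received alginate oligosaccharide (AOS) at 10 mg/kg, and HS mice received a high-fat diet and streptozotocin (STZ), which destroys insulin-producing cells and is used to model diabetes. HS+A10 mice received the diet, STZ and AOS at 10 mg/kg. The A10-FMT and Con-FMT groups received the same diet and STZ as HS mice plus a transfer of gut microbiota (FMT), taken from donors dosed with AOS at 10 mg/kg or from control donors. According to the study's methods all mice of the transfer experiment were male, and the donors' small intestine content was pooled by group, so each kind of transfer represents a single pool. The study's methods describe daily oral gavage with AOS for the donor mice, which were killed younger than the mice of these libraries. They give no dosing schedule for the A10 and HS+A10 mice whose livers were sequenced, which are known here from the sample labels. Nothing in the labels says whether each library came from a separate animal, so the p-values measure the spread between these libraries.

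SR proteins bind short enhancer sequences in exons through RNA recognition motifs, and their arginine- and serine-rich domains recruit the spliceosome. Kinases of the SRPK and CLK families phosphorylate these domains, which controls entry into the nucleus and release from nuclear speckles. Many SR genes hold a so-called poison exon, whose inclusion sends the transcript to nonsense-mediated decay and lets the protein limit its own level. Cirbp and Rbm3 bind RNA through a single recognition motif and are induced by mild cooling, while heat-inducible chaperones are induced by warming through heat shock factor 1. In liver, body temperature cycles, feeding and the circadian clock are known to act on both systems.

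In GENCODE M21 (GRCm38, called mm10 in the submitters' processing notes) each of the 10 genes has at least 1 transcript annotated as a target of nonsense-mediated decay. The same holds for 29.9% of the 10074 tested protein-coding genes. All 10 also have a transcript with a retained intron, against 60.9% of those genes. On the same build, the SR genes are Srsf1 (chr11:88047373-88053755, + strand), Srsf2 (chr11:116849901-116853094, - strand), Srsf3 (chr17:29032628-29043373, + strand), Srsf5 (chr12:80945504-80950507, + strand), Srsf6 (chr2:162931528-162937121, + strand) and Srsf7 (chr17:80200080-80207307, - strand). The transformer-2 genes are Tra2a (chr6:49243924-49264033, - strand) and Tra2b (chr16:22244549-22266005, - strand), and the cold-inducible genes are Cirbp (chr10:80165985-80172786, + strand) and Rbm3 (chrX:8138975-8145880, - strand). The RPKM values are given per gene, so productive and decay-targeted transcripts could not be told apart. Srsf1, Srsf2, Tra2a and Rbm3 overlap genes on the opposite strand, among them the protein-coding genes Mettl23 and Mfsd11 at Srsf2 and the antisense transcript Rbm3os at Rbm3. The library preparation is not described as stranded, so reads from the overlapping parts could belong to either gene. Tra2b and Rbm3 each have a pseudogene, Tra2b-ps and Rbm3-ps, that may share reads with them.

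The sequences before the transcription starts are shown for the 5 genes that differed between A10-FMT and Con-FMT, as described after the group values. RefSeq promoter windows (GRCm38.p6) were at hand for 9 of the 10 genes, and Rbm3 had no entry. Each line is written 5′ to 3′ on the gene's own strand and covers the 250 bases before the RefSeq start, less any base that GENCODE places in an exon. Capitals mark matches, on either strand, to the heat shock element core GAANNTTC, the mild-cold-responsive element TCCCCGCC, the CCAAT box or the E-box CACGTG, and no matches overlapped.
Cirbp (chr10:80167589-80167777, + strand): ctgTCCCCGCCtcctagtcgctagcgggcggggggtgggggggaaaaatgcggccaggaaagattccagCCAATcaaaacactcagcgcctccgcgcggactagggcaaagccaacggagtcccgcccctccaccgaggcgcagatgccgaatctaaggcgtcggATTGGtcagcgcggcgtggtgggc
Srsf5 (chr12:80945249-80945498, + strand): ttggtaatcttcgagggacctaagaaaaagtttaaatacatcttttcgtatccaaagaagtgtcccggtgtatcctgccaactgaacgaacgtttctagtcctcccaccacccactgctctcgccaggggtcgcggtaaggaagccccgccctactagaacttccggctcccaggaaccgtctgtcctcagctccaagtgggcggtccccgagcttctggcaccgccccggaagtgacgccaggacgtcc
Tra2a (chr6:49264053-49264302, - strand): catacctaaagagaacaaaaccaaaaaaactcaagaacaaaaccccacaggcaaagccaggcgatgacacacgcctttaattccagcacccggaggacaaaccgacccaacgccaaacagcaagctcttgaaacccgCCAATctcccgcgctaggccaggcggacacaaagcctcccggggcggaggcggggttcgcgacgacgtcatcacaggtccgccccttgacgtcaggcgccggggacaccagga
Tra2b (chr16:22266006-22266255, - strand): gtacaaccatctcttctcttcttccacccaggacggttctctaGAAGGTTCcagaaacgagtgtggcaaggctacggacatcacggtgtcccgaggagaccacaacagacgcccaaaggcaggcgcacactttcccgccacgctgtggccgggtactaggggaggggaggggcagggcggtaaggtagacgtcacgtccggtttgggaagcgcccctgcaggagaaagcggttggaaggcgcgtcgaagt
Srsf7 (chr17:80207308-80207555, - strand): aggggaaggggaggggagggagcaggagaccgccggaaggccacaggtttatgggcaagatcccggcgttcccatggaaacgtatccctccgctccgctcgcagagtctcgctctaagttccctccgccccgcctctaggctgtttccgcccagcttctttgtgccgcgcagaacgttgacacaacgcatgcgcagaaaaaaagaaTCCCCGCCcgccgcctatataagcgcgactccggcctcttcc
The Cirbp line holds TCCCCGCC 247 bases before the start, along with a CCAAT box on each strand at 181 and 85 bases. The window of the other Cirbp start (chr10:80167921-80168170, + strand), which is not printed, holds none of the 4 motifs. Srsf7 holds TCCCCGCC at 44 bases, Tra2a holds a CCAAT box at 113 bases, and Tra2b holds GAANNTTC at 207 bases before the start. The printed Srsf5 window holds none of the 4 motifs. Among all 32851 windows of 250 bases in the table, 4.64% hold TCCCCGCC, 6.69% hold GAANNTTC, 33.8% hold CCAAT and 6.02% hold CACGTG. In the 10 windows of the 9 genes (Cirbp has a pair of starts) the counts were 2, 1, 4 and 0 in the same order. The G and C share of these windows ran from 56.8% to 72.4%, against a median of 52.4% over all windows. A match describes letters and was not tested for binding.

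The summed RPKM of the libraries ran from 692818 to 806937, and the number of reads was not given. Low values of 15 genes placed the relative depth of the libraries between 0.956 and 1.05. The middle of the distribution of all tested genes moved in some comparisons. The median log2 change over all tested genes was 0.14 for HS against Con, -0.16 for A10-FMT against HS and -0.12 for Con-FMT against HS. When each library was scaled to 1 median, the share of called genes that were higher went from 89.4% to 45.0% for HS against Con, from 9.03% to 55.3% for A10-FMT against HS and from 19.5% to 40.9% for Con-FMT against HS. That share went from 35.8% to 57.6% for A10-FMT against Con-FMT, from 40.3% to 61.9% for HS+A10 against HS and from 65.1% to 51.9% for HS+A10 against A10. In 97.9% of 140 genes in which Con replicates 1 and 2 differed by over 1 on the log2 scale, Con replicate 3 lay between them, and A10 replicate 3 did so for 95.6% of 135 genes, while each library of the 4 other groups lay between its 2 companions for 54.7% to 74.3% of such genes. The labels do not say how these libraries relate to the others of their group. If they are not independent samples, the SDs and p-values that count 3 libraries for Con and A10 are too small. All comparisons share 1 estimate of the spread over the 18 libraries, so p-values of comparisons without Con or A10 can be too small as well. Counts of called genes in the comparisons with Con or A10, and some counts of the other comparisons, are therefore given with and without both of them. All 5 hepatocyte markers were detected in every library, with summed RPKM from 38137 to 62158. Pancreatic acinar markers summed to 13110 RPKM in Con-FMT replicate 3, with 8 of 8 detected, and to between 14.1 and 49.7 in the other libraries. Erythroid markers summed to 2886, 10041 and 5574 RPKM in the HS libraries and to between 876 and 3619 elsewhere. Over all libraries the summed markers ran from 27.9 to 63.8 RPKM for Kupffer cells, 27.7 to 58.9 for endothelial cells, 67.4 to 155.7 for stellate cells, 16.2 to 43.5 for cholangiocytes and 0.910 to 5.15 for lymphocytes. Where such sums did not overlap between compared groups, they are given beside the comparison. In bulk liver, fewer cells of a type and less RNA per cell cannot be told apart.

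**Figure D1:**
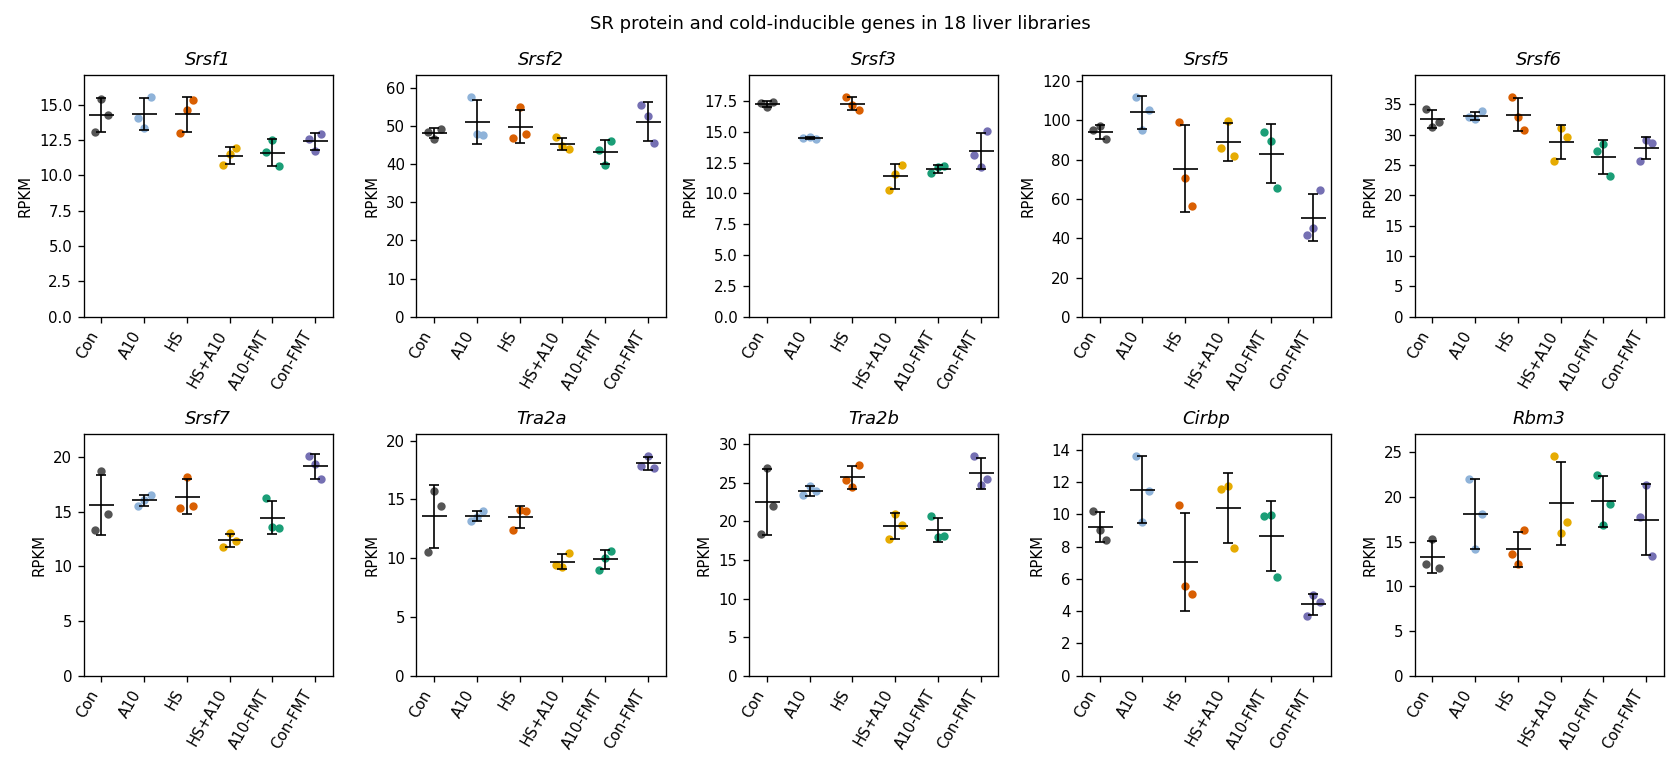
RPKM (y axis, from 0) of the 10 genes in the 18 libraries, by group (x axis); points are single libraries and black bars give the mean and SD of 3 libraries. Tra2a in Con-FMT (17.7 to 18.7 RPKM) lies above every other library, and Srsf3 in HS+A10, A10-FMT and Con-FMT (10.3 to 15.1) lies lower than in Con and HS (16.8 to 17.8).

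Srsf5, first described as an insulin-induced and early gene of regenerating liver, was the most abundant of the 10 genes, at a mean of 82.8 RPKM over the 18 libraries. Srsf2, a core component of nuclear speckles, followed at 48.1 RPKM and Srsf6 at 30.3. The remaining 7 genes had means from 8.55 RPKM (Cirbp) to 22.8 RPKM (Tra2b). Cirbp had the widest range of group means, 2.61-fold from the lowest to the highest, followed by Srsf5 at 2.06-fold and Tra2a at 1.87-fold. In a moderated F test over the 6 group means, 8 of the 10 genes passed an adjusted p of 0.05, where 56.1% of all tested genes passed. Srsf2 (adjusted p = 0.166, limma) and Rbm3 (adjusted p = 0.102) did not. This count was 8 whichever single library was left out, and 7 without both Con replicate 3 and A10 replicate 3.

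The transformer-2 proteins Tra2a and Tra2b bind GAA-rich exonic enhancers and promote inclusion of the exons that carry them. Tra2a measured 10.5, 15.7 and 14.4 RPKM in the Con libraries, 13.1, 13.5 and 14.03 in A10 and 12.4, 14.1 and 14.04 in HS. Tra2a values were 9.42, 9.21 and 10.4 RPKM in HS+A10, 17.8, 18.7 and 17.7 in Con-FMT and 9.03, 10.01 and 10.6 in A10-FMT. All 3 Con-FMT values were higher than the other 15, and all HS+A10 and A10-FMT values except the highest A10-FMT one were lower than every value of Con, A10 and HS. Tra2b measured 18.4, 26.97 and 22.1 RPKM in the Con libraries, 23.4, 24.6 and 23.9 in A10 and 25.4, 24.4 and 27.4 in HS. Tra2b values were 17.7, 20.99 and 19.5 RPKM in HS+A10, 28.6, 24.7 and 25.5 in Con-FMT and 20.8, 17.9 and 18.1 in A10-FMT. For Tra2b the A10-FMT and HS+A10 libraries were low together, with Con replicate 1 among them, and Con-FMT lay among or above the HS libraries. By group mean, the order of Tra2a from high to low was Con-FMT (18.1 ± 0.569 RPKM, SD, n = 3), A10 (13.6 ± 0.446), Con (13.5 ± 2.68), HS (13.5 ± 0.965), A10-FMT (9.88 ± 0.798) and HS+A10 (9.69 ± 0.658). The 3 neighbours A10, Con and HS differed by less than their spread, as did A10-FMT and HS+A10.

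Srsf7, a shuttling SR protein with a zinc knuckle, followed both Tra2 genes. Srsf7 measured 13.4, 18.7 and 14.8 RPKM in the Con libraries, 15.5, 16.1 and 16.5 in A10 and 15.3, 18.2 and 15.5 in HS. Srsf7 values were 11.8, 13.00 and 12.3 RPKM in HS+A10, 20.1, 19.3 and 17.9 in Con-FMT and 16.2, 13.6 and 13.5 in A10-FMT. The 3 Con-FMT values were the highest apart from Con replicate 2 and HS replicate 2, which reached up to 18.7 RPKM, and HS+A10 was lowest. Across the 18 libraries, log2 values of Srsf7 correlated with those of Tra2a at r = 0.84 and of Tra2b at r = 0.83, and Tra2a correlated with Tra2b at r = 0.82. After group means were removed these values were 0.47, 0.75 and 0.50. They are descriptions over libraries that share groups and a common scale.

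Srsf3 is the smallest SR protein, and its loss from mouse hepatocytes is known to impair their maturation and metabolism. Srsf3 measured 17.4, 17.01 and 17.4 RPKM in the Con libraries, 14.5, 14.6 and 14.4 in A10 and 17.8, 17.2 and 16.8 in HS. Srsf3 values were 10.3, 11.6 and 12.3 RPKM in HS+A10, 13.1, 12.1 and 15.1 in Con-FMT and 11.6, 12.1 and 12.2 in A10-FMT. The Con and HS libraries stood together at the top, A10 lay in a narrow band lower, and the HS+A10 and A10-FMT libraries overlapped at the bottom. Srsf3 group means were 17.3 ± 0.215 RPKM in Con and 17.3 ± 0.535 in HS (SD, n = 3), 14.5 ± 0.0603 in A10, 13.4 ± 1.48 in Con-FMT, 12.01 ± 0.323 in A10-FMT and 11.4 ± 1.01 in HS+A10. Neighbours in this order that overlapped were Con with HS, A10 with Con-FMT, Con-FMT with A10-FMT and A10-FMT with HS+A10. Srsf3 had the lowest F-test adjusted p of the 10 genes, at 8.7e-05, and Tra2a followed at 2.1e-04.

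Srsf1, the founding SR protein, and Srsf6 were, like Srsf3, lower by mean in HS+A10, A10-FMT and Con-FMT than in HS, over a smaller range. Unlike Srsf3, neither had a lower mean in A10 than in Con. Srsf1 measured 13.03, 15.4 and 14.3 RPKM in the Con libraries, 14.04, 13.4 and 15.6 in A10 and 12.96, 14.6 and 15.3 in HS. Srsf1 values were 10.7, 11.5 and 11.9 RPKM in HS+A10, 12.6, 11.7 and 12.9 in Con-FMT and 11.6, 12.5 and 10.6 in A10-FMT. The HS+A10 and A10-FMT values of Srsf1 were all lower than the Con, A10 and HS values, and Con-FMT lay between 11.7 and 12.9 RPKM. Srsf6 measured 34.2, 31.3 and 32.1 RPKM in the Con libraries, 32.8, 32.6 and 33.9 in A10 and 36.2, 32.9 and 30.8 in HS. Srsf6 values were 25.6, 31.1 and 29.6 RPKM in HS+A10, 25.7, 29.1 and 28.7 in Con-FMT and 27.2, 28.5 and 23.2 in A10-FMT. For Srsf6 the 3 groups HS+A10, A10-FMT and Con-FMT (23.2 to 31.1 RPKM) lay mostly lower than Con, A10 and HS (30.8 to 36.2). Across 18 libraries Srsf1 correlated with Srsf3 at r = 0.79 and Srsf3 with Srsf6 at r = 0.71, falling to 0.21 and 0.33 after group means were removed.

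Srsf2 showed the smallest range among the 10 genes, 1.18-fold between group means. Srsf2 measured 48.4, 46.6 and 49.2 RPKM in the Con libraries, 57.6, 47.8 and 47.5 in A10 and 46.7, 54.8 and 47.8 in HS. Srsf2 values were 47.1, 44.7 and 43.9 RPKM in HS+A10, 55.3, 52.6 and 45.4 in Con-FMT and 43.6, 39.8 and 46.05 in A10-FMT. The 3 A10-FMT values were lower than all values of Con, A10 and HS, and those of HS+A10 were lower than those of A10, while the other groups overlapped.

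Srsf5 was the only SR gene of the 8 with its lowest group mean in Con-FMT. It correlated with Srsf6 at r = 0.51 over 18 libraries and at 0.70 after group means were removed. Srsf5 measured 95.04, 97.4 and 90.3 RPKM in the Con libraries, 112, 95.2 and 105 in A10 and 99.5, 70.8 and 56.3 in HS. Srsf5 values were 85.8, 99.9 and 81.7 RPKM in HS+A10, 41.8, 45.4 and 64.4 in Con-FMT and 94.01, 89.7 and 65.8 in A10-FMT. In Con, A10 and HS+A10 all values were 81.7 RPKM or more, while Con-FMT stayed at 64.4 or less. The HS group was split, with replicate 1 at 99.5 RPKM and the other libraries at 70.8 and 56.3. In the A10-FMT group replicate 3 (65.8 RPKM) was apart from replicates 1 and 2.

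Cirbp, which binds stress-regulated transcripts and influences polyadenylation of clock gene mRNAs, followed Srsf5. Cirbp measured 10.2, 9.02 and 8.41 RPKM in the Con libraries, 13.6, 9.51 and 11.4 in A10 and 10.6, 5.57 and 5.06 in HS. Cirbp values were 11.5, 11.8 and 7.90 RPKM in HS+A10, 3.72, 5.01 and 4.55 in Con-FMT and 9.91, 9.95 and 6.14 in A10-FMT. Con-FMT (4.43 ± 0.654 RPKM, SD, n = 3) was lowest and A10 (11.5 ± 2.07) highest, with HS+A10 (10.4 ± 2.17), Con (9.21 ± 0.910), A10-FMT (8.67 ± 2.19) and HS (7.07 ± 3.04) between them. Each pair of neighbours overlapped except Con-FMT and HS, whose values did not. HS replicate 1 and A10-FMT replicates 1 and 2 were near the Con level, and the remaining libraries of those groups were lower. Cirbp and Srsf5 correlated at r = 0.93 over 18 libraries and at 0.81 after group means were removed.

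Rbm3, which supports translation in the cold, did not follow Cirbp. Rbm3 measured 12.4, 15.3 and 12.02 RPKM in the Con libraries, 21.98, 14.2 and 18.1 in A10 and 13.6, 12.5 and 16.3 in HS. Rbm3 values were 24.6, 16.00 and 17.2 RPKM in HS+A10, 17.7, 21.3 and 13.4 in Con-FMT and 22.4, 16.8 and 19.2 in A10-FMT. Most pairs of groups overlapped, with the highest values in HS+A10 replicate 1 and A10-FMT replicate 1 and the lowest in Con. The A10-FMT values (from 16.8 RPKM) were all higher than those of Con and HS. The HS+A10 values (from 16.00 RPKM) were all higher than those of Con. Rbm3 correlated with Cirbp at only r = 0.17 and with Srsf3 at r = -0.78, which was -0.76 after group means were removed. The ratio of Cirbp to Rbm3 within a library, which does not depend on the scaling of libraries, had a geometric mean of 0.697 in Con and 0.641 in A10. It was 0.476 in HS, 0.541 in HS+A10, 0.256 in Con-FMT and 0.437 in A10-FMT. Con-FMT values ran from 0.210 to 0.340, and the highest of them lay within the ranges of HS (from 0.310) and A10-FMT (from 0.319).

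Below, alternatives are other settings or library sets at the same threshold, an adjusted p under 0.05. At a stricter threshold, an adjusted p of at most 0.001 with a log2 change of at least 1, 0 of the 10 genes were called in any comparison.

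No gene of the 10 passed the test for HS against Con, the comparison of the diet and STZ with control mice, in which 15.9% of all tested genes were called higher and 1.87% lower. The 10 genes had a median log2 change of 0.02, against 0.14 over all tested genes, and the sign turned under median scaling (-0.16) and quantile normalization (-0.14). In this comparison 0 of them reached an unadjusted p under 0.05. The largest differences were those of Cirbp, with a log2 change of -0.40 ± 0.23 (SE) and an adjusted p of 0.226 by limma, and of Srsf5, at -0.35 ± 0.19 and 0.198. Without HS replicate 1 both passed, Cirbp at -0.69 (adjusted p = 0.0335) and Srsf5 at -0.57 (adjusted p = 0.0448). Tra2b passed in 1 of 16 alternatives, that without Con replicate 2 (0.34, adjusted p = 0.0377). Without both Con replicate 3 and A10 replicate 3 the count was again 0, with Cirbp at -0.46 and Srsf5 at -0.38. Stellate markers summed to 107 to 156 RPKM in HS and 67.4 to 78.3 in Con, erythroid markers were also higher in HS, and lymphocyte and acinar markers were lower, each without overlap. Their part in the differences was not tested.

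For A10-FMT against Con-FMT, the comparison of donor pools in mice with the same diet and STZ, Cirbp and Srsf5 were called higher and Tra2a, Tra2b and Srsf7 lower, so 2 genes were higher and 3 lower. Among all tested genes 6.72% were called higher and 12% lower. The mean RPKM of Tra2a in A10-FMT was 0.547 times that in Con-FMT, and its fitted change of log2(RPKM + 1) was -0.81 ± 0.11 (SE, adjusted p = 2.1e-04, limma). Tra2b changed by -0.45 ± 0.11 (adjusted p = 0.0108) and Srsf7 by -0.38 ± 0.11 (adjusted p = 0.0202). The mean RPKM of Cirbp was 1.96 times that in Con-FMT, with a fitted change of 0.81 ± 0.23 (adjusted p = 0.0223). For Srsf5 the ratio of means was 1.65 and the fitted change 0.72 ± 0.19 (adjusted p = 0.0168). For these 5 genes the A10-FMT and Con-FMT libraries did not overlap. The share of all tested genes without overlap was not computed, so this adds nothing to the calls. The summed markers of all 8 cell types overlapped between both groups.

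Tra2a and Tra2b passed under 16 of 16 alternatives at the threshold of 0.05. Cirbp passed under 12, Srsf5 under 11 and Srsf7 under 10, each with its direction kept in all 16. Leaving out A10-FMT replicate 1 or 2 or Con-FMT replicate 1 ended the call of Cirbp (adjusted p from 0.0767 to 0.0911) and of Srsf5 (0.0637 to 0.0694). Without A10-FMT replicate 2, A10-FMT replicate 3, Con-FMT replicate 1 or Con-FMT replicate 2, Srsf7 had adjusted p values from 0.0516 to 0.0794, and without Con-FMT replicate 2 Srsf5 had 0.0566. Con-FMT replicate 3, the library with high acinar markers, was not needed for these calls. Without it 6 genes passed, Srsf2 being the added one (-0.32, adjusted p = 0.0378). The number of genes called was 2 without A10-FMT replicate 2 or Con-FMT replicate 1 and 3 without A10-FMT replicate 1 or Con-FMT replicate 2. The 5 genes not called had log2 changes from -0.24 (Srsf2) to 0.16 (Rbm3).

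The ratio of Srsf5 to Tra2a within a library summarized this contrast without any scaling. Its geometric mean was 2.75 in Con-FMT, with values from 2.35 to 3.64. It was 5.44 in HS, 7.05 in Con, 7.66 in A10, 8.33 in A10-FMT and 9.18 in HS+A10. The lowest value outside Con-FMT was 4.01, in HS, so Con-FMT overlapped no other group. Both genes were called in this comparison, in opposite directions, so the separation repeats their values and is no separate result. The log2 ratio of Tra2b to Srsf6 ran from -0.24 to 0.15 in Con-FMT. It overlapped HS, where replicate 3 was at -0.17, and Con, where replicate 2 was at -0.22.

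**Figure D2:**
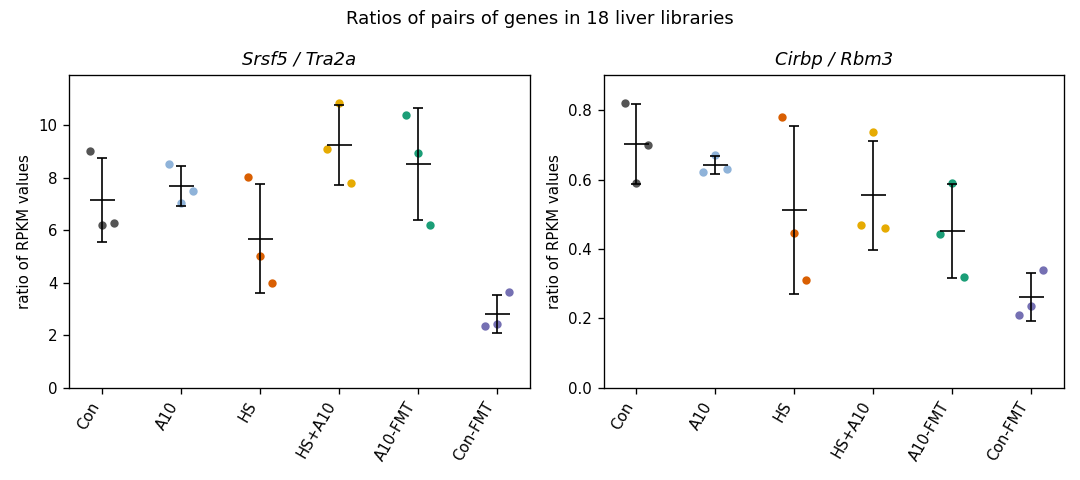
Ratio of Srsf5 to Tra2a (left) and of Cirbp to Rbm3 (right), each from the RPKM values of 1 library (y axis, from 0) by group (x axis); black bars give the arithmetic mean and SD of 3 libraries. The Con-FMT libraries sit between 2.35 and 3.64 on the left, lower than all 15 others.

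For A10-FMT against HS, 5 of the 10 genes were called lower and 0 higher, where 21.0% of all tested genes were lower and 2.09% higher. Srsf3 changed by -0.49 ± 0.075 (SE, adjusted p = 9.1e-04, limma), the largest shift among the 10 genes. Tra2b (-0.43 ± 0.11, adjusted p = 0.0142), Tra2a (-0.42 ± 0.11, 0.0147), Srsf6 (-0.33 ± 0.091, 0.0187) and Srsf1 (-0.28 ± 0.086, 0.0289) followed. Rbm3 differed by 0.44 ± 0.19, which did not pass (adjusted p = 0.105). The median log2 change of the 10 genes was -0.24, against -0.16 over all tested genes, and it was -0.06 under median scaling and -0.08 under quantile normalization. After median scaling Srsf3 was still lower (-0.31, adjusted p = 0.0213) and Rbm3 was called higher (0.62, adjusted p = 0.0498), while Srsf1, Srsf6, Tra2a and Tra2b lost their calls (adjusted p from 0.107 to 0.424). Without A10-FMT replicate 3, 2 genes passed, and 3 passed without HS replicate 2 or HS replicate 3. Srsf3 passed in 16 of 16 alternatives at the threshold of 0.05. Kupffer markers summed to 27.9 to 36.5 RPKM in A10-FMT and 40.2 to 63.7 in HS, and stellate markers to 79.2 to 99.9 and 107 to 156. Erythroid and lymphocyte markers were also lower in A10-FMT, and acinar markers higher, without overlap. Their part in the differences was not tested.

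For Con-FMT against HS, Tra2a was called higher and Srsf3 and Srsf5 lower, where 4.61% of all tested genes were higher and 19.0% lower. Tra2a changed by 0.40 ± 0.11 (SE, adjusted p = 0.0163, limma), Srsf3 by -0.34 ± 0.075 (0.00465) and Srsf5 by -0.56 ± 0.19 (0.0457). The Srsf5 libraries of both groups overlapped, and the call was lost in 12 of 16 alternatives. Among them were those without HS replicate 1 (-0.34, adjusted p = 0.202) or Con-FMT replicate 1 (-0.43, 0.159). Median scaling (0.0938), quantile normalization (0.0767) and leaving out both Con replicate 3 and A10 replicate 3 (0.0737) also ended it. Srsf7 did not pass (0.22 ± 0.11, adjusted p = 0.155), but was called higher under median scaling (0.32, 0.0186) and quantile normalization (0.28, 0.0346). Tra2a lost its call without HS replicate 1 (0.34, adjusted p = 0.0634) or Con-FMT replicate 2 (0.37, 0.0537). The number of genes called was 1 without HS replicate 1 or Con-FMT replicate 2. Cirbp differed by -0.52 ± 0.23, which did not pass (adjusted p = 0.116, limma) and passed in 0 of 16 alternatives. Its libraries did not overlap, but only narrowly, with the highest Con-FMT value at 5.01 RPKM and the lowest HS value at 5.06. The share of all tested genes without overlap was not computed, so this adds nothing to the test. A10-FMT and Con-FMT were compared with the same 3 HS libraries, so both sets of differences share them. Stellate markers, at 79.7 to 95.4 RPKM in Con-FMT, did not overlap HS either, and their part was not tested.

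For HS+A10 against HS, the comparison of direct dosing with AOS under the diet and STZ, 5 of the 10 genes were called lower and 0 higher, where 4.37% of all tested genes were lower and 2.95% higher. Srsf3 changed by -0.56 ± 0.075 (SE, adjusted p = 0.00305, limma) and Tra2a by -0.44 ± 0.11 (0.0258). Tra2b (-0.39 ± 0.11), Srsf7 (-0.37 ± 0.11) and Srsf1 (-0.30 ± 0.086) each had an adjusted p of 0.0453. The median log2 change of the 10 genes was -0.25, against -0.03 over all tested genes. The count fell to 2 without HS+A10 replicate 3, to 1 without HS replicate 2, HS replicate 3, HS+A10 replicate 1 or HS+A10 replicate 2, and to 1 when both Con replicate 3 and A10 replicate 3 were left out of the fit. At the threshold of 0.05 Srsf3 passed in 14 of 15 alternatives, and its adjusted p was 0.0533 in the remaining one, a fit on both groups alone. Endothelial markers summed to 49.0 to 58.9 RPKM in HS+A10 and 36.7 to 43.3 in HS, and their part in the differences was not tested.

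For A10 against Con, AOS in mice without the diet and STZ, no gene of the 10 passed, where 0.0490% of all tested genes were called higher and 0.0196% lower. An unadjusted p under 0.05 was found for 2 genes, and the share of all tested genes with such a p was not computed. These 2 genes were Srsf3 (log2 change -0.24 ± 0.075, adjusted p = 0.210, limma) and Rbm3 (0.41 ± 0.19, 0.358), and the 3 A10 values of Srsf3 were all lower than the 3 of Con. Without both Con replicate 3 and A10 replicate 3 the count of genes called was again 0. Erythroid and lymphocyte markers were higher in A10 than in Con without overlap, and their part was not tested. For HS+A10 against A10, 4 genes were called lower and 0 higher, where 7.28% of all tested genes were lower and 13.6% higher. These were Tra2a (-0.45 ± 0.11, adjusted p = 0.00923), Srsf3 (-0.33 ± 0.075, 0.00671), Srsf1 (-0.30 ± 0.086, 0.0205) and Srsf7 (-0.35 ± 0.11, 0.0288). The count was 2 without A10 replicate 3 or HS+A10 replicate 1, and 2 without both Con replicate 3 and A10 replicate 3. Endothelial, stellate and cholangiocyte markers were higher in HS+A10 than in A10, and hepatocyte, lymphocyte and acinar markers lower, without overlap, and their part was not tested. No gene of the 10 passed the interaction of HS and A10, which was called in 0.00980% of all tested genes. The count was also 0 without both Con replicate 3 and A10 replicate 3. An unadjusted p under 0.05 was found for 5 genes, but the share of all tested genes with such a p was not computed. The largest interaction was that of Tra2b at -0.50 ± 0.16 (adjusted p = 0.215).

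**Figure D3:**
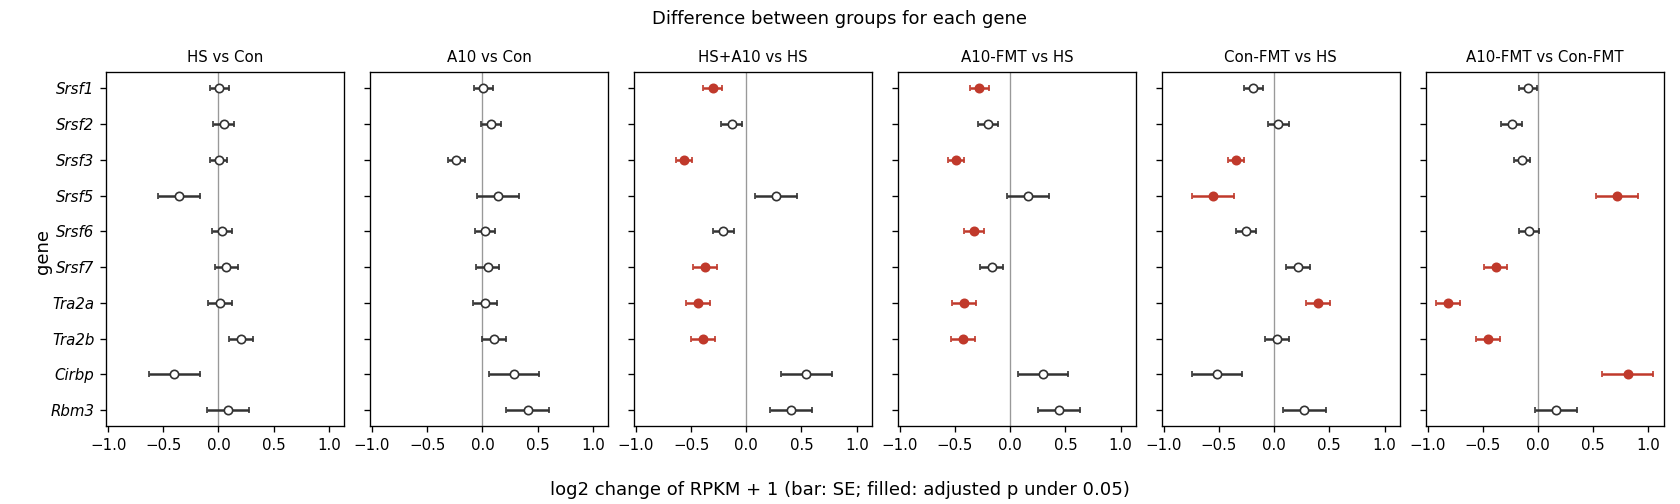
Log2 change of RPKM + 1 (x axis) for the 10 genes (y axis) in 6 comparisons; bars give the SE and filled red points mark an adjusted p under 0.05. Srsf3 lies left of 0 in the 3 comparisons with HS as reference, and Tra2a changes side between A10-FMT against HS (-0.42) and Con-FMT against HS (0.40).

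Heat-inducible chaperones, the genes induced by warming rather than cooling, were examined beside Cirbp and Rbm3. For A10-FMT against Con-FMT, 15 of the 19 chaperone genes were called lower and 0 higher, with a median log2 change of -0.94 against -0.03 over all tested genes. This count was 10 without A10-FMT replicate 2, at most 15 without any other single library, and 13 under median scaling. Ahsa1, a co-chaperone of HSP90, was at 98.1 ± 2.1 RPKM in Con-FMT (SD, n = 3) and between 54.9 and 75.8 in the 5 other group means (F test adjusted p = 3.0e-05, limma). Chordc1, another HSP90 co-chaperone, was at 37.8 ± 0.731 RPKM in Con-FMT and between 12.7 and 23.4 in the 5 other group means. Serpinh1, the collagen chaperone HSP47, was at 9.70 ± 1.49 RPKM in Con-FMT and 3.40 ± 0.380 in A10-FMT. Hspa1a and Hspa1b are near-identical copies whose reads may be shared, and neither passed for A10-FMT against Con-FMT. Their means in A10-FMT and Con-FMT were 26.6 ± 25 and 27.6 ± 12 RPKM (Hspa1a) and 71.3 ± 67 and 79.9 ± 37 (Hspa1b, SD, n = 3). Those of Dnajb1 were 30.25 ± 34 and 28.9 ± 13, so for these genes the group means were close. The fitted log2 changes of all 19 chaperones were negative in this comparison. For A10-FMT against HS, 6 chaperones were lower, where 21.0% of all tested genes were lower. For HS+A10 against HS, 5 were lower (Hspb1, Hspe1, Chordc1, Hspa4l and Ahsa1), where 4.37% of all tested genes were lower. For HS against Con, 3 were higher (Hspd1, Chordc1 and Serpinh1), where 15.9% of all tested genes were higher. For Con-FMT against HS, 2 were higher (Chordc1 and Ahsa1), where 4.61% of all tested genes were higher. Hspd1 alone was higher for HS+A10 against A10, and 0 of 19 passed for A10 against Con. Under median scaling the counts were 1 lower for A10-FMT against HS, 4 lower for HS+A10 against HS, 0 for HS against Con, 7 higher for Con-FMT against HS and 0 for HS+A10 against A10. Without both Con replicate 3 and A10 replicate 3, 0 were called for HS against Con and HS+A10 against A10, and 2 were lower for HS+A10 against HS.

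The mean log2(RPKM + 1) of the 19 chaperones ran from 6.21 to 6.46 in Con-FMT and from 4.62 to 5.21 in HS+A10. In HS it was 4.99 in replicate 1 and 6.06 and 6.27 in replicates 2 and 3, and in A10-FMT it was 5.11 and 5.04 in replicates 1 and 2 and 5.996 in replicate 3. Within HS and A10-FMT, the libraries low in Cirbp and Srsf5 were therefore those high in chaperones. The Con-FMT libraries were low in both genes and high in chaperones. This did not hold for Srsf5 in Con, where replicate 2 had the highest chaperone level (5.66) and the highest Srsf5 (97.4 RPKM). The libraries were split at the widest gap of these same chaperone values, between 12 libraries up to 5.66 and 6 libraries from 5.996. The 6 were all Con-FMT libraries, HS replicates 2 and 3 and A10-FMT replicate 3. Since the split came from the values themselves, the sets are not separate observations of a pattern. Cirbp had r = -0.72 over the 12 and r = -0.78 over the 6. Srsf5 had r = -0.09 over the 12 and r = -0.94 over the 6, and Tra2a had r = 0.68 and r = 0.83. Rbm3 had r = -0.48 and r = 0.44. These correlations describe libraries that share groups and a common scale. The part of the chaperone level, or of anything that sets it, in the differences of the 10 genes was not tested.

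**Figure D4:**
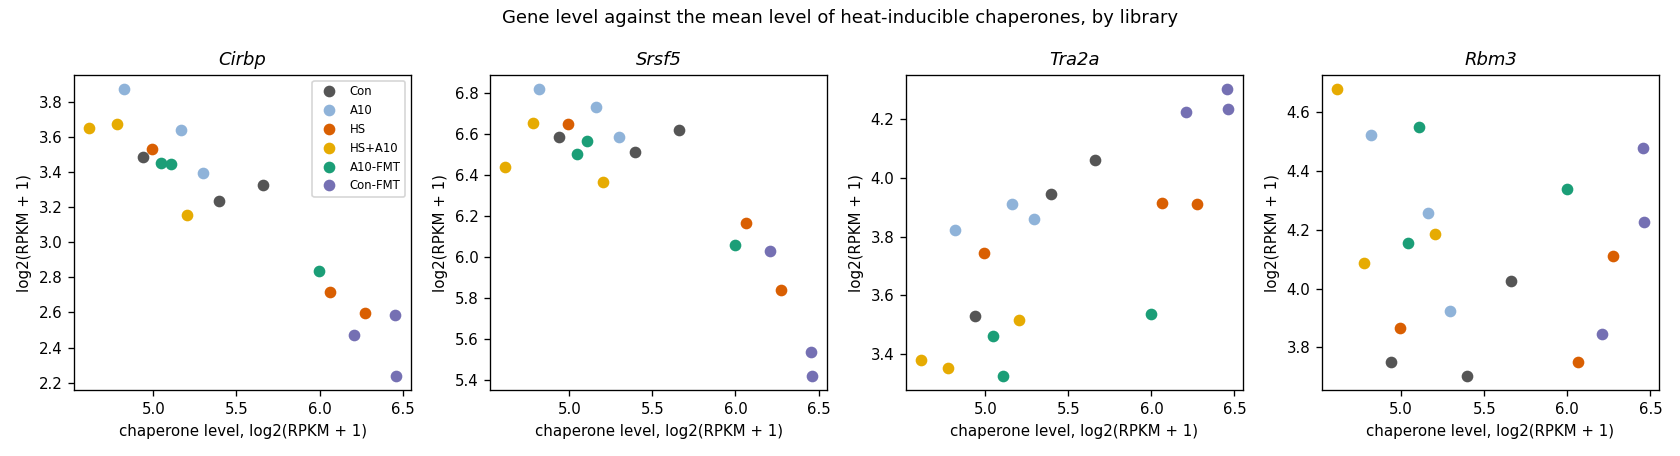
Log2(RPKM + 1) of Cirbp, Srsf5, Tra2a and Rbm3 (y axes) against the mean log2(RPKM + 1) of 19 heat-inducible chaperones (x axes); each point is 1 of 18 libraries, coloured by group. HS replicate 1 lies with the low-chaperone libraries at 4.99, and HS replicates 2 and 3 lie at 6.06 and 6.27 with low Cirbp.

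Circadian clock genes separated the groups in another way. In the F test 14 of 14 clock genes passed, where 56.1% of all tested genes passed. Dbp, a clock-controlled transcription factor, was at 0.640 ± 0.053 RPKM in Con, 1.85 ± 1.5 in A10 and 1.73 ± 0.53 in HS, but at 65.8 ± 28 in HS+A10, 53.4 ± 1.9 in Con-FMT and 77.9 ± 26 in A10-FMT (SD, n = 3). Nr1d2, a REV-ERB repressor, was at 2.52 to 8.49 RPKM in the first 3 group means and at 19.2 to 21.3 in the others. Npas2, a partner of BMAL1, ran the other way, at 1.73 to 3.31 RPKM and 0.157 to 0.347. For HS+A10, A10-FMT and Con-FMT against HS, 8 clock genes were higher in each, and 4, 4 and 3 were lower. Among all tested genes 2.95%, 2.09% and 4.61% were higher and 4.37%, 21.0% and 19.0% lower, in the same order. For HS+A10 against A10, 8 were higher and 3 lower (Arntl, Npas2 and Cry1), where 13.6% of all tested genes were higher and 7.28% lower. For HS against Con, Nr1d1 and Nr1d2 were higher and Npas2 and Cry1 lower, for A10 against Con Nr1d1 and Nr1d2 were higher, and for A10-FMT against Con-FMT Hlf was higher. With both Con replicate 3 and A10 replicate 3 left out, 1 clock gene was lower for HS against Con and 0 were higher for A10 against Con. The groups with high Dbp were the same 3 groups in which Srsf3, Srsf1 and Srsf6 had their lowest means. The labels give no time of day of collection, and the part of the clock state in those differences was not tested.

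Among the other SR proteins, 4 of the 5 listed genes were tested and 2 passed the F test (50.0%, against 56.1% of all tested genes). Srsf10, a splicing repressor when dephosphorylated by heat, was at 9.73 ± 0.28 RPKM in A10-FMT and between 10.2 and 12.2 in the other group means (F test adjusted p = 0.0243, limma). Srsf9 was at 12.2 ± 1.7 RPKM in A10-FMT and 15.3 ± 0.53 in HS. Both were lower for A10-FMT against HS, and Srsf11 was higher for Con-FMT against HS (0.26 ± 0.090, adjusted p = 0.0493) and lower for A10-FMT against Con-FMT (-0.27 ± 0.090, 0.0446). None passed for HS against Con, HS+A10 against HS, A10 against Con or HS+A10 against A10. Under median scaling 0 genes of the list were lower in either comparison of A10-FMT.

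Of the 9 kinase and import genes, 1 passed the F test (11.1%, against 56.1% of all tested genes). This was Tnpo3, the importin of SR proteins, which was lower for A10-FMT against Con-FMT (-0.27 ± 0.079, adjusted p = 0.0301, limma). Srpk1 was lower for A10-FMT against HS (-0.31 ± 0.092, 0.0257) and Srpk2 higher for HS+A10 against A10 (0.28 ± 0.088, 0.0343). Each of these 3 calls was absent under median scaling, and that of Srpk2 also without both Con replicate 3 and A10 replicate 3. The CLK kinases Clk1, Clk2, Clk3 and Clk4 passed in no comparison.

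Of the 16 SR-related and nuclear speckle genes, 9 passed the F test (56.2%, against 56.1% of all tested genes). Thrap3, an RS-domain protein of speckles, was at 13.7 ± 1.0 RPKM in Con-FMT and 19.4 ± 2.4 in A10-FMT, and it was the only one of the 16 higher in A10-FMT (0.47 ± 0.083, adjusted p = 0.00143, limma). Luc7l, Rbm39, Acin1 and Rbm25 were lower in the same comparison. For A10-FMT against HS, Acin1, Rnps1 and Ppig were lower. For Con-FMT against HS, Luc7l was higher and Thrap3 and Ppig lower. For HS+A10 against HS, Thrap3 was higher and Acin1 and Rbm25 lower, and the latter pair were also lower for HS+A10 against A10. Rnps1 was higher for HS against Con. Under median scaling the counts turned to 3 higher and 0 lower for A10-FMT against HS and to 0 higher and 3 lower for HS against Con, and 2 were lower for A10-FMT against Con-FMT. Without both Con replicate 3 and A10 replicate 3, 0 were called for HS+A10 against HS and 0 for HS+A10 against A10.

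Of 34 core spliceosome genes, all tested, 21 passed the F test (61.8%, against 56.1% of all tested genes). For A10-FMT against Con-FMT, 12 were lower and 0 higher, with a median log2 change of -0.22, against -0.03 over all tested genes. This count was 10 after median scaling and 7 after quantile normalization, and it was 7 without Con-FMT replicate 3 and 8 without A10-FMT replicate 2, A10-FMT replicate 3 or Con-FMT replicate 1. Sf3b1, which recognises the branch point region, was at 32.4 ± 1.4 RPKM in Con-FMT and 21.9 ± 1.9 in A10-FMT, Sf1 at 32.0 ± 1.5 and 22.9 ± 1.5, and Prpf3 at 6.04 ± 0.68 and 4.11 ± 0.067. For A10-FMT against HS 13 were lower and 0 higher, where 21.0% of all tested genes were lower. This count fell to 1 after median scaling. For HS+A10 against HS 6 were lower, where 4.37% of all tested genes were lower. For Con-FMT against HS, Sf1, Sf3b1 and Prpf3 were higher and Snrpa1 and Eftud2 lower. For HS against Con, Sf3b1 was higher and Snrpf lower, and under median scaling 0 were higher and 4 lower. For HS+A10 against A10, Prpf19 was higher and U2af1, Snrpd1, Snrpd3, Snrpf and Snrpg lower. With both Con replicate 3 and A10 replicate 3 left out, 0 were called for HS against Con, 7 were lower for A10-FMT against HS, 3 were lower for HS+A10 against HS, and 0 were higher and 2 lower for HS+A10 against A10.

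Of 24 hnRNP genes, whose products often oppose SR proteins at splice sites, 8 passed the F test (33.3%, against 56.1% of all tested genes). For A10-FMT against Con-FMT, Hnrnpd was higher and Hnrnpc, Hnrnph1, Hnrnph2, Hnrnpm and Pcbp1 lower. For A10-FMT against HS, Hnrnpa3, Hnrnpc, Hnrnph2, Hnrnpr and Pcbp1 were lower, 5 of 24 where 21.0% of all tested genes were lower. For Con-FMT against HS, Hnrnpd, Hnrnpr and Hnrnpul1 were lower, and for HS+A10 against A10, Hnrnpa0 and Hnrnpdl were lower. Pcbp1 was higher for HS against Con and lower for HS+A10 against HS, with group means of 99.5 ± 6.6 RPKM in Con, 119 ± 5.1 in HS and 94.6 ± 3.3 in HS+A10. Hnrnpc was at 45.8 ± 3.9 RPKM in Con-FMT and 31.3 ± 2.3 in A10-FMT. Under median scaling 0 were called for HS against Con, 1 was higher and 0 lower for A10-FMT against HS, and 2 were higher and 3 lower for A10-FMT against Con-FMT. With both Con replicate 3 and A10 replicate 3 left out, 0 were called for HS against Con and HS+A10 against A10, 3 were lower for A10-FMT against HS and 1 was lower for Con-FMT against HS.

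Of 22 other RBM genes, 10 passed the F test (45.5%, against 56.1% of all tested genes). Rbm17, a 3′ splice site factor, was at 17.8 ± 1.0 RPKM in Con, 23.5 ± 2.7 in HS and 28.5 ± 1.1 in HS+A10. Rbm8a, part of the exon junction complex, was at 9.95 ± 0.50 RPKM in A10-FMT and 14.6 ± 0.85 in Con-FMT, and Rbm10 at 7.31 ± 0.27 and 11.1 ± 0.52. For A10-FMT against Con-FMT, Rbm43 was higher and Rbm7, Rbm8a, Rbm10, Rbm14 and Rbm42 lower. For A10-FMT against HS, Rbm7, Rbm8a, Rbm10 and Rbm42 were lower, 4 of 22 where 21.0% of all tested genes were lower, and for Con-FMT against HS, Rbm10 and Rbm14 were higher and Rbm43 lower. For HS against Con, Rbm7, Rbm8a and Rbm17 were higher. Under median scaling 0 were higher and 1 lower for HS against Con, and 1 was higher and 0 lower for A10-FMT against HS. Rbm10 was lower for HS+A10 against HS, and for HS+A10 against A10 Rbm17 was higher and Rbmx, Rbm4b and Rbm42 lower. With both Con replicate 3 and A10 replicate 3 left out, 2 were higher for HS against Con, 1 was higher for Con-FMT against HS, 0 were lower for HS+A10 against HS and 1 was lower for HS+A10 against A10.

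Among the nonsense-mediated decay genes reported here, Smg6, the endonuclease of the pathway, was at 4.09 ± 0.21 RPKM in Con-FMT and between 5.09 and 6.38 in the other group means. Upf3b was higher and Smg8 lower for A10-FMT against Con-FMT. Smg5 was lower for A10-FMT against HS, Upf3b, Smg5 and Smg6 were lower for Con-FMT against HS, and Upf3a was higher for HS against Con. Under median scaling, or without both Con replicate 3 and A10 replicate 3, 0 were called higher for HS against Con. Under median scaling 0 were lower for A10-FMT against HS and 1 lower for Con-FMT against HS. Only 3 of 10 proliferation genes reached the mean of 1 RPKM, and of these Mcm2 was lower for A10-FMT against HS (-0.44 ± 0.15, adjusted p = 0.0409, limma) and higher for HS+A10 against A10 (0.44 ± 0.15, 0.0437), both calls being absent under median scaling and also without both Con replicate 3 and A10 replicate 3.

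The tested genes outside the 10 whose log2 values were most like those of Cirbp over the 18 libraries were Snx21 (r = 0.91), Mn1 (0.90), Chpf2 (0.89), Dcaf15 (0.89) and Tigd2 (0.89). For Rbm3 they were Limd2 (r = 0.78), Pmm2 (0.77), Zc3h11a (0.76), Rnaset2a (0.76) and Apool (0.76). For the mean of the 8 SR genes they were Nedd4l (r = 0.91), Sarnp (0.89), Dpp9 (0.89), Coa3 (0.89) and Copz1 (0.88). These are the top ranks among 10204 genes and are given as a description.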

How the data were processed

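Liver RNA-seq was analysed in 18 libraries of 6 groups, taken from the sample labels. The authors enriched mRNA with oligo(dT), used SOAPaligner to place reads on reference genes, and deposited RPKM values per gene with 2 decimals. The submitters' processing notes instead list Bowtie 0.12.2 and mm10. RPKM were used as deposited, since read numbers were not given, and precision is limited by 3 libraries a group. Values were analysed as log2(RPKM + 1) with limma 3.58.1 in R 4.3.3 (variance trend, 1 mean per group, all 18 libraries, genes averaging 1 RPKM or more, two-sided, Benjamini-Hochberg over all 10204 genes, called at an adjusted p under 0.05). Fold changes on this scale understate changes of low genes. An exact test of 3 against 3 libraries cannot go below p = 0.1. The fit was tested on simulated data. Symbols turned into dates (26) were left unmatched. The study's DEGseq test needs counts and was not used.

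The 10 genes and all gene lists were chosen with earlier results of these data known. Genes named beyond the 10 were the up to 3 of each list with the lowest F-test p among those called, the genes making up counts of 5 or fewer, and the 5 genes most correlated with Cirbp, Rbm3 or the SR mean. Alternatives were the pseudocount, filters, scaling, variance trend, threshold, libraries in the fit, the replicate number as a block and leaving out single libraries. The fit without Con replicate 3 and A10 replicate 3 was chosen after seeing the data. A gene of the lists is not reported here. Promoter and transcript annotation (RefSeq GRCm38.p6, GENCODE M21) was read with Python 3.11.15 and figures were drawn with matplotlib 3.10.9.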

Additional observations from a re-analysis of the deposited data

How the results depend on the processing

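Each value was recomputed under the alternatives. Of 1090 values of log2 change of the 10 genes, 1053 moved by less than the replicate SD and 37 by more. Filters, the variance trend, the replicate block and the choice of other groups in the fit cannot change a difference between group means. Part of the 1053 was therefore fixed in advance, and the count does not measure stability. Counts below give the 10 genes first and then the pathway lists (10 lists), and the cause of each shift was not tested unless fewer libraries or a stricter rule made it. Reported list counts were 15 for HS against Con, 49 for A10-FMT against HS, 31 for Con-FMT against HS, 50 for A10-FMT against Con-FMT, 28 for HS+A10 against HS, 2 for A10 against Con and 28 for HS+A10 against A10. With no filter, HS+A10 against HS had 2 genes. Quantile normalization gave 2 and 21 for A10-FMT against HS, and median scaling 2 and 20. With 12 libraries of 4 groups the lists had 6 for HS against Con and 29 for A10-FMT against HS. With only both compared groups the lists had 4 for HS against Con and 1 for A10 against Con, and the counts were 3 and 14 for A10-FMT against HS, 1 and 13 for Con-FMT against HS, 3 and 23 for A10-FMT against Con-FMT and 0 and 7 for HS+A10 against HS. At an adjusted p of at most 0.001 and a log2 change of at least 1, 0 of the 10 genes were called in any comparison, and the lists had 2, 6, 4, 2, 1, 0 and 7 in the order given above. Without both Con replicate 3 and A10 replicate 3, an alternative chosen after seeing the data, HS+A10 against HS had 1 and 16, HS+A10 against A10 had 2 and 15, and the lists had 6 for HS against Con and 0 for A10 against Con. Leaving out single libraries gave 0 to 2 and 7 to 25 for HS against Con, 2 to 5 and 23 to 59 for A10-FMT against HS, 1 to 4 and 21 to 32 for Con-FMT against HS, 2 to 6 and 30 to 44 for A10-FMT against Con-FMT, 1 to 5 and 11 to 47 for HS+A10 against HS, 0 and 0 to 3 for A10 against Con, and 2 to 4 and 15 to 18 for HS+A10 against A10. Same-numbered libraries did not pair (correlation of deviations from group means -0.126 to 0.262, with 10 of 18 libraries closest to their own number), and the replicate number as a block gave 0, 5, 2, 5, 4, 0 and 4 genes in the order above. The number of reads is unknown, so precision at low RPKM cannot be stated.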
